A study of Mus musculus with 6 samples.

Results

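The respiratory chain subunits encoded in the nucleus were followed in small intestine tumors of mice given PEGPH20 or vehicle. Members were all protein-coding genes whose symbols match the subunit families Nduf (a, b, c, s or v), Sdh, Uqcr, Cox4 to Cox8 and Atp5, without assembly factors and pseudogenes. The table of 21878 genes held 81 of them, of which 37 belong to complex I by symbol, 4 to complex II, 8 to complex III, 15 to complex IV and 17 to complex V. A further 4 annotated identifiers that fit the symbols (a second Atp5o, Cox6a2, Cox7b2 and Cox8c) were not analysed here. All 6 tumors came from mice with the genotype Prkci f/f Prkcz f/f;Villin-Cre, that is, with floxed alleles of both atypical protein kinase C genes and a Cre recombinase driven by the Villin promoter of intestinal epithelium. The control tumors therefore carry the same targeted alleles as the treated ones, the Cre does not act in stroma or immune cells, and no tumor with intact alleles enters the comparison. From 11 weeks of age, mice received vehicle (replicates 1 to 3) or PEGPH20 at 0.0375 mg/kg (replicates 4 to 6), with 2 doses per week over 3 weeks, and tumors were analysed at 14 weeks of age. PEGPH20 is a pegylated recombinant human hyaluronidase, which cleaves the matrix polysaccharide hyaluronan. Whether the tumors came from different mice is not in the labels, and p-values speak only of the spread among the samples, which may be technical.

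The respiratory chain sits in the inner mitochondrial membrane. Complex I and complex II pass electrons from NADH and succinate to ubiquinone, complex III passes them on to cytochrome c, and complex IV hands them to oxygen. Complexes I, III and IV pump protons, and complex V, the ATP synthase, uses the return of protons to make ATP. Most subunits are encoded in the nucleus and imported, a small core is encoded in mitochondrial DNA, and complex II is wholly nuclear. In the small intestine, differentiated absorptive cells are known to be richer in mitochondria than crypt cells.

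Levels are counts of 3' tags scaled to 1000000 gene-assigned reads in each library (CPM), from 2075588 to 2832876 reads per library. A transcript gives tags from its 3' end whatever its length, so CPM was not divided by length, and levels of different genes are set side by side only on that scale. PEGPH20 replicate 5 stood apart from the other libraries, with correlations across genes of 0.836 to 0.901 against up to 0.979 between others. Over 11389 genes tested with limma on log2(CPM + 1), 9 genes (0.079%) passed at an adjusted p under 0.05 with all libraries, and 339 (2.98%) without replicate 5. The deleted genes give no check of genotype, because both groups share it and a 3' tag can lie outside a deleted part. Epithelial markers were present in every library, where the summed level of 9 pan-epithelial genes such as Epcam and Krt8 ran from 6010 to 9422 CPM.

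The subunits were higher in PEGPH20 tumors as a group, by a small amount that was shared by all complexes, and no single subunit passed the test with all 6 libraries. Of the 81 genes, 76 had enough reads to be tested, and 70 of these (92.1%) had a log2 difference (PEGPH20 minus vehicle) above 0, against 40.2% of all genes tested. The median log2 difference was 0.23 over the subunits and -0.09 over all genes. In 34 subunits all PEGPH20 libraries lay above all vehicle libraries, and in 0 all lay below, while over all genes 9.71% were separated upwards and 17.6% downwards. Both shares of all genes are a background for reading the counts, since subunits are not independent of one another. That background was not matched for level. The tested subunits had a median level of 109 CPM, and 42 subunits exceeded 100 CPM.

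**Figure D1:**
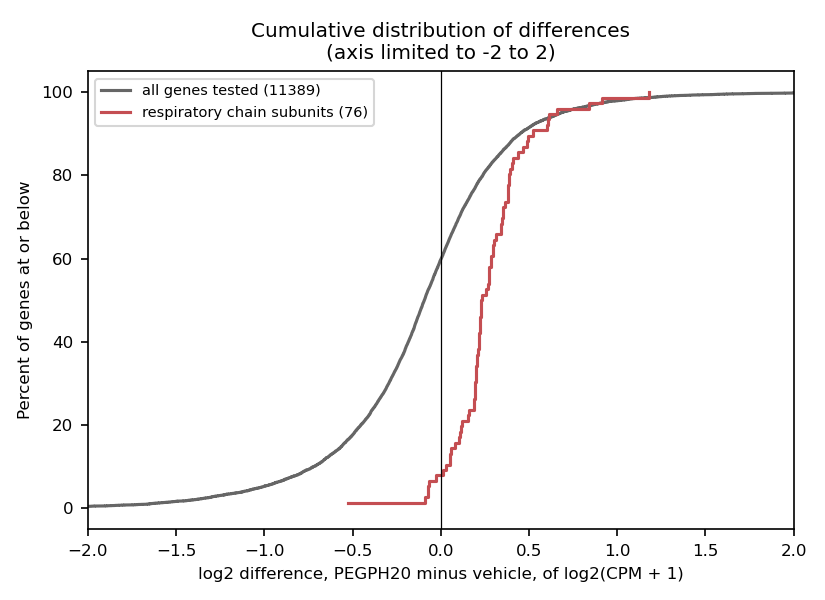
Cumulative share of genes (y axis, percent) at or below each log2 difference (x axis, PEGPH20 minus vehicle on log2(CPM + 1), limited to -2 to 2), for 76 respiratory chain subunits and all 11389 genes tested. The subunit curve lies to the right of the other over most of its course, with medians of 0.23 and -0.09, and the upper ends of the curves meet.

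Summed over all 81 genes, subunit transcripts made up 10034, 9889 and 10307 CPM in vehicle replicates 1, 2 and 3. In PEGPH20 replicates 4, 5 and 6 the sums were 11449, 13098 and 11936 CPM. The groups did not overlap, and the ratio of their means was 1.21, or 1.16 without replicate 5. The same order held in each complex. Means of the summed level (SD, n = 3 each) were 3020 ± 50.3 against 3466 ± 195 CPM in complex I, a ratio of 1.15. For complex II they were 412 ± 4.39 and 576 ± 91.2 CPM, a ratio of 1.40. Complex III gave 1230 ± 11.2 and 1479 ± 76.5 CPM (1.20), complex IV 2362 ± 50.8 and 2884 ± 228 CPM (1.22) and complex V 3053 ± 168 and 3755 ± 322 CPM (1.23). In all 5 complexes each PEGPH20 library was above each vehicle library. Without replicate 5 the ratios were 1.12, 1.28, 1.17, 1.17 and 1.17 in the same order. In bulk tumor RNA, fewer cells of a type and less RNA per cell cannot be told apart, and the same holds for more of either.

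**Figure D2:**
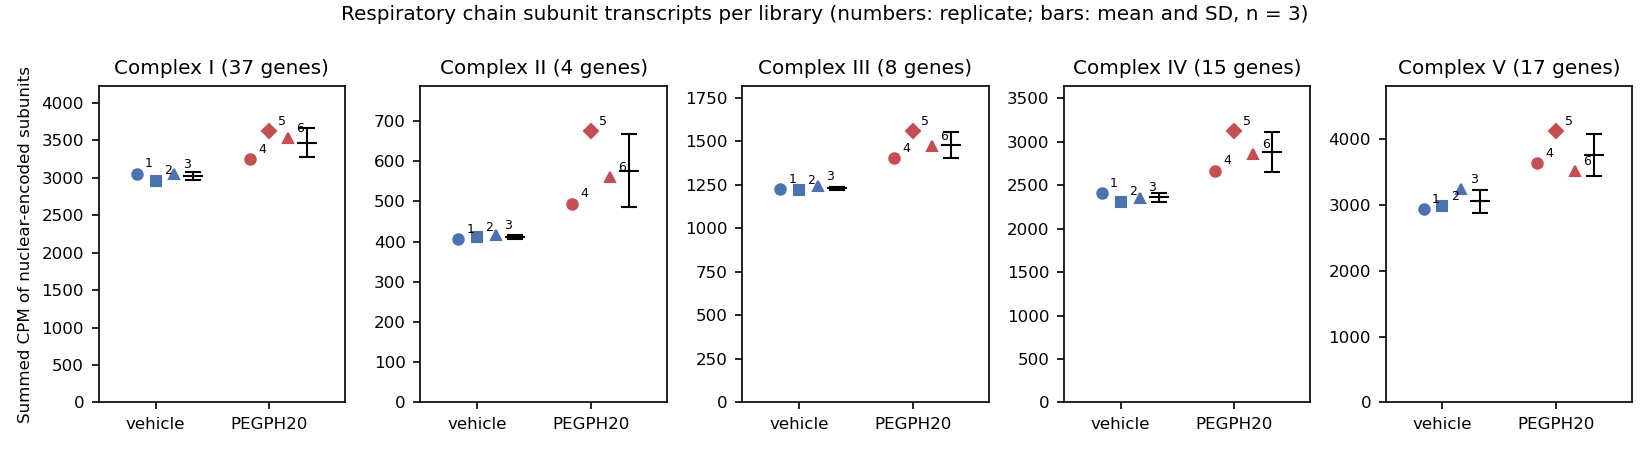
Summed level in CPM (y axis, from 0) of the subunits of each complex in each of the 6 libraries, with vehicle and PEGPH20 libraries marked by replicate number and the mean and SD (n = 3) beside them. In every panel the 3 PEGPH20 libraries sit above the 3 vehicle libraries, for example 495 to 675 against 407 to 416 CPM in complex II.

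The test with all libraries called 0 of the 76 subunits, where the background share of genes called was 0.079%, and 0.0263% for genes called higher (limma, Benjamini-Hochberg adjustment over all genes, adjusted p from 0.129 for Sdhd to 0.973 for Ndufb8). At an unadjusted p under 0.05 there were 20 subunits higher and 0 lower, against 6.52% and 11.5% of all genes. edgeR's quasi-likelihood test called 0 of the subunits as well (0.0878% of all genes, 0.0351% higher), and DESeq2 called 2, Sdhd and Ndufa1, both higher (2.43% of all genes, 1.12% higher). With libraries weighted by quality in limma, 6 subunits were called, all higher (7.65% of all genes, 2.58% higher). Without replicate 5, 1 subunit was called by limma, Sdhd, where 0.948% of all genes were called higher, and 69 of 76 subunits were higher, against 48.1% of all genes. The median was then 0.22, against -0.01 over all genes, and 38 subunits were separated upwards, against 15.8% of all genes. Without that library, Sdhd, Ndufa1 and Ndufa4 rose both in edgeR's test (3.7% of all genes called, 1.52% higher) and in limma with TMM scaling (3.36%, 1.34% higher). With TMM scaling of all libraries, 75 of 76 subunits were above 0, against 49.6% of all genes, and 0 were called.

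Promoters of 4 subunits are shown because the subunits were higher together and these 4 differ in the letters they hold that known regulators of mitochondrial genes can bind. Sequences are from RefSeq on GRCm38.p6, in the direction of transcription, from the window of 250 bases before to 50 after the start, and trimmed to the longest stretch free of annotated exons. They cover chr9:50603850-50603909 for Sdhd, chr6:11907498-11907700 for Ndufa4, chr5:115348982-115349129 for Cox6a1 and chr2:73911327-73911576 for Atp5g3, all on the minus strand. Capitals mark matches, on either strand, to the NRF1 letters (GCGC, any base, then TGCGC), to CGGAAG (the core bound by ETS factors such as GABP, whose reverse complement is CTTCCG) or to CAAGGTCA (bound by estrogen-related receptors, reverse complement TGACCTTG).
Sdhd: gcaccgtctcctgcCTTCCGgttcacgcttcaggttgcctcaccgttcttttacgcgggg
Ndufa4: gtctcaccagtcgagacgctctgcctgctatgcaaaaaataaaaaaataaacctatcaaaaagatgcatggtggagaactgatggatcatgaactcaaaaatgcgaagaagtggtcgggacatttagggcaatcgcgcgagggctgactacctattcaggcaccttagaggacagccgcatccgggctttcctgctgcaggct
Cox6a1: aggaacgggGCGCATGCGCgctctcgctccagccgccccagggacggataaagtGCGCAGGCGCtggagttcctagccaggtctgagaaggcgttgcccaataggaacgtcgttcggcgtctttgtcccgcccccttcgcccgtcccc
Atp5g3: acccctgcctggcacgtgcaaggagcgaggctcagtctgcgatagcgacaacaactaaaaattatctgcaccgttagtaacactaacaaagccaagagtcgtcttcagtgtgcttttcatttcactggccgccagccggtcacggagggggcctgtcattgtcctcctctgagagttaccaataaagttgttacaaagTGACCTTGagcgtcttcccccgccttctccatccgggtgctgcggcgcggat

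The Sdhd stretch holds CTTCCG at position -46 from the start, and the rest of its window holds an NRF1 match at -79 and TGACCTTG at 37. The Cox6a1 stretch holds NRF1 letters at -162 and -117, with CTTCCG at -16, past the printed stretch. Atp5g3 holds TGACCTTG at -52 with an NRF1 match at 13, past the printed stretch. Ndufa4 holds none of the 3 motifs in its window. Across the 65 subunits with a RefSeq promoter, 17 (26.2%) hold the NRF1 letters, against 5.19% of 27025 genes, 26 (40.0%) hold CGGAAG, against 18.8%, and 4 (6.15%) hold CAAGGTCA, against 1.76%. The 27025 genes are all those with a RefSeq promoter, with no limit to protein-coding or tested genes, so the sets are unlike. The median log2 difference was 0.25 in tested subunits with the NRF1 letters and 0.27 without, and 0.30 with CGGAAG and 0.22 without. With CAAGGTCA it was 0.49, against 0.26 without. That 0.49 came from only 3 tested subunits, Sdhd (1.18), Ndufs5 (0.49, 73 reads in all) and Atp5g3 (0.38). Of these only Sdhd separated the groups. A match is a description of letters and not a binding site.

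Transcripts of such regulators did not pass the test. Nrf1, whose protein binds the NRF1 letters, was at 24.1, 29.8 and 27.5 CPM in vehicle and 26.8, 20.4 and 27.8 CPM in PEGPH20 libraries. Its groups overlapped, and the log2 difference of -0.12 (limma adjusted p = 0.748) was 0.01 without replicate 5. Esrra, an estrogen-related receptor, was at 33.7, 51.2 and 54.7 CPM in vehicle and 70.2, 72.5 and 58.3 CPM in PEGPH20 libraries, which do not overlap (log2 difference 0.54, limma adjusted p = 0.241). Gabpa, the DNA-binding subunit of GABP, was at 29.9, 27.1 and 29.1 CPM against 24.4, 22.1 and 23.7 CPM, lower without overlap (-0.28, adjusted p = 0.352). Ppargc1a, a coactivator of mitochondrial genes, was at 28.4, 14.5 and 8.41 CPM against 18.7, 95.0 and 20.5 CPM, and only replicate 5 exceeded the vehicle range (1.08, adjusted p = 0.40). Of 10 tested regulators in the list, 6 were higher and 4 lower, with a median of 0.14 and 0 past the threshold. The smallest p of the list was that of Tefm, at 1.45, 0.38 and 3.44 CPM against 4.59, 4.58 and 6.37 CPM. Those values do not overlap and come from only 51 reads in all (1.31, limma adjusted p = 0.202).

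Complex II, succinate dehydrogenase, is both a citric acid cycle enzyme and an entry point of the chain, and it had the largest median of the 5 complexes. All 4 of its genes were higher and separated between groups (9.71% of all genes were separated upwards), with a median log2 difference of 0.59. The difference between complexes was not tested, since 4 genes of 1 complex are not replicates. Its share of all subunit tags was 4.06%, 4.16% and 4.03% in vehicle and 4.32%, 5.15% and 4.69% in PEGPH20 libraries, again without overlap.

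Sdhd (ENSMUSG00000000171, chromosome 9 from 50596357 to 50603812 on GRCm38) encodes a subunit that helps to anchor the enzyme in the membrane and bind heme and ubiquinone. Its level was 12.5, 9.94 and 13.0 CPM in vehicle replicates 1, 2 and 3 and 33.5, 30.0 and 21.4 CPM in PEGPH20 replicates 4, 5 and 6. Every PEGPH20 library was well above every vehicle library, and replicate 5 was not the highest. Means were 11.8 ± 1.65 and 28.3 ± 6.25 CPM (SD, n = 3 each), a ratio of 2.39, from 86 and 214 reads in all. The log2 difference was 1.18 (SE 0.23, limma adjusted p = 0.129). Without replicate 5 Sdhd rose by 1.13 on the log2 scale and passed (adjusted p = 0.0388), and over all alternatives its adjusted p ran from 0.00644 to 0.421. Timm8b, an import factor whose first exon lies in the Sdhd promoter window, was at 47.7, 57.7 and 60.01 CPM in vehicle and 59.7, 63.3 and 76.5 CPM in PEGPH20 libraries, which overlap (0.26, adjusted p = 0.404). It was chosen after its position was seen.

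Sdhc, the other membrane anchor, was at 61.7, 84.5 and 79.5 CPM in vehicle and 103, 135 and 117 CPM in PEGPH20 libraries (log2 difference 0.66, SE 0.17, limma adjusted p = 0.160). Sdhb, the iron-sulfur subunit, was at 136, 127 and 118 CPM against 140.1, 249.6 and 173 CPM (0.52, SE 0.21, adjusted p = 0.254). The gap between groups was narrow in Sdhb, and replicate 5 was far above the rest, so that the difference was 0.29 without it. Sdha, the flavoprotein that oxidises succinate, was at 197, 190.0 and 205 CPM against 217, 259.6 and 248 CPM (0.29, SE 0.12, adjusted p = 0.275). The anchors thus had larger log2 differences than the catalytic subunits, a contrast that was seen in the data and not tested.

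**Figure D3:**
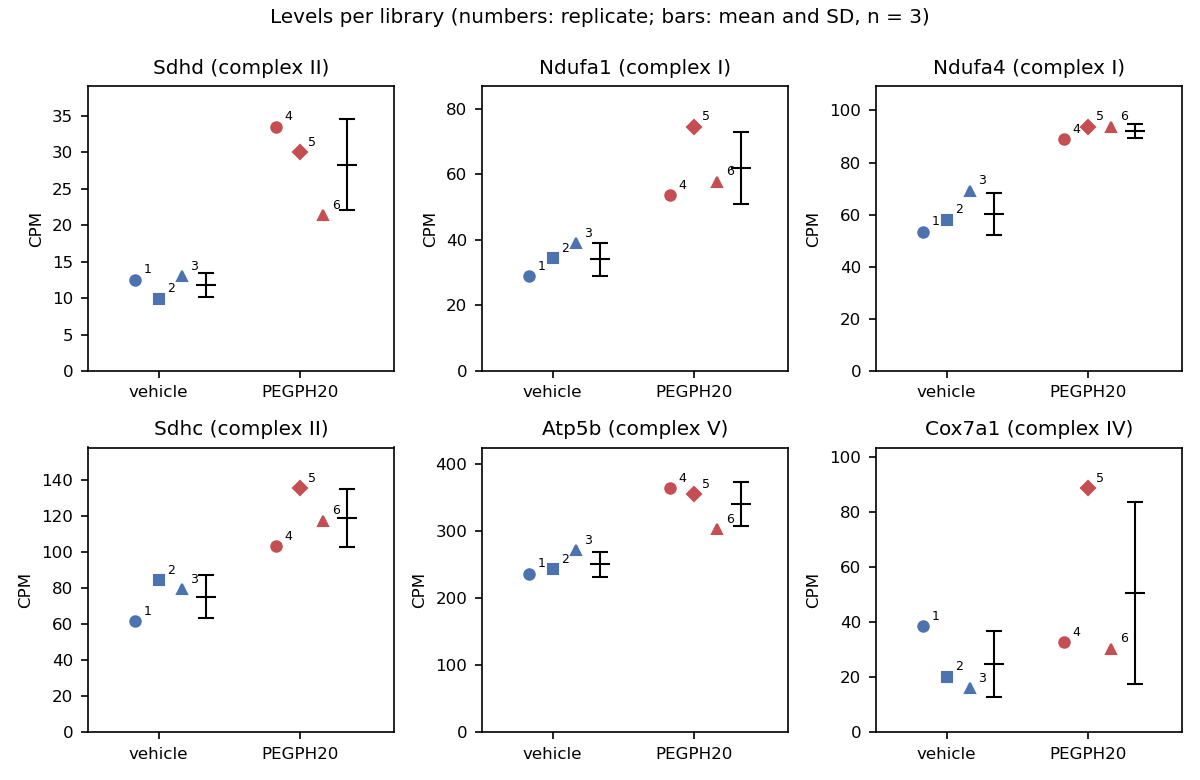
Level in CPM (y axis, from 0) of Sdhd, Ndufa1, Ndufa4, Sdhc, Atp5b and Cox7a1 in each library, with the replicate number beside each point and bars for the mean and SD (n = 3 each). The groups are separated in the first 5 genes, while in Cox7a1 they overlap and PEGPH20 replicate 5 at 88.8 CPM stands apart.

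In complex I, 32 of 36 tested genes were higher, and 11 were separated upwards, against 9.71% of all genes. The median log2 difference was 0.20. The leading gene was Ndufa1, an X-linked accessory subunit needed for assembly of the membrane arm. It was at 28.9, 34.4 and 39.0 CPM in vehicle and 53.7, 74.6 and 57.8 CPM in PEGPH20 libraries. The groups were clearly apart, with means of 34.1 ± 5.05 and 62.0 ± 11.1 CPM (SD, n = 3 each) and a ratio of 1.82. It did not pass with all libraries (log2 difference 0.84, SE 0.19, limma adjusted p = 0.143), was at 0.0515 without replicate 5, and rose in the DESeq2 fit (adjusted p = 0.0380).

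Ndufa4 was first assigned to complex I and is now placed in complex IV. Its levels were 53.5, 58.1 and 69.2 CPM in vehicle and 89.0, 93.8 and 93.8 CPM in PEGPH20 libraries. The PEGPH20 values were close together, and replicate 5 did not stand out. Its log2 difference was 0.61 (SE 0.14, limma adjusted p = 0.147) with all libraries and 0.60 without replicate 5 (0.0538), where it rose in edgeR's quasi-likelihood fit (adjusted p = 0.0334). Counting it with complex IV left the median of complex I at 0.20 and moved that of complex IV from 0.31 to 0.33. Its paralog Ndufa4l2, a hypoxia-induced gene, had 5 reads summed over the vehicle and 1 over the PEGPH20 libraries and was not tested.

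Ndufb3, a membrane arm subunit, was at 45.3, 57.3 and 68.4 CPM in vehicle and 77.0, 98.4 and 83.7 CPM in PEGPH20 libraries, separated between groups (log2 difference 0.60, limma adjusted p = 0.183). Ndufb9, of the same arm, had 95.9, 88.3 and 86.4 CPM against 114, 119 and 121 CPM, with little spread in either group (0.38, adjusted p = 0.183). Ndufb5 had 80.5, 80.7 and 79.1 CPM against 96.4, 112 and 108 CPM (0.39, adjusted p = 0.185). Ndufb9 and Ndufb5 were not in the rule for named genes and were chosen after their values were seen, as members past the threshold when libraries were weighted by quality.

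Of the catalytic subunits in the rule for named genes, neither separated the groups. Ndufv1, which binds FMN and takes electrons from NADH, was at 104, 76.8 and 66.5 CPM in vehicle and 59.3, 92.5 and 84.2 CPM in PEGPH20 libraries. The groups overlapped fully, and the log2 difference of -0.06 turned to 0.03 under TMM scaling (limma adjusted p = 0.894 with all libraries). Ndufs1, the largest iron-sulfur subunit, was at 126, 128 and 139 CPM against 137, 154 and 161 CPM, with a slight overlap (0.20, adjusted p = 0.411). Of the abundant accessory subunits, Ndufa6 was at 236, 237 and 249 CPM against 243, 338 and 266 CPM, and only replicate 5 was clearly higher (0.22, and 0.08 without it). Ndufb8 was at 234, 197 and 211 CPM against 197, 219.6 and 229 CPM, with a difference of 0.01 that changed sign without replicate 5. The other lower subunits of the complex were Ndufa7 (-0.09), Ndufs4 (-0.07) and Ndufs3 (-0.03), each with overlapping groups and named after their values were seen. Other separated genes were Ndufb10 (0.30), Ndufa9 (0.29), Ndufa12 (0.28), Ndufa10 (0.26) and Ndufa13 (0.23), and the least abundant tested gene was Ndufs5, at 2.68 to 6.12 CPM in vehicle and 5.29 to 6.37 CPM in PEGPH20 libraries.

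When complex I was divided by position, a grouping made after the values were seen and therefore not tested, the membrane arm stood higher than the matrix arm. All 19 tested genes of the membrane arm were above 0, from 0.01 to 0.84. Their median was 0.26, and 7 were separated upwards, against 9.71% of all genes. In the matrix arm, which holds the flavin and the iron-sulfur clusters, 12 of 16 were above 0, with the lowest at -0.09. The median there was 0.14, and 3 were separated upwards, against the same 9.71% of all genes. Summed levels of the matrix arm were 1545, 1474 and 1522 CPM in vehicle and 1549, 1750.0 and 1697 CPM in PEGPH20 libraries, where replicate 4 lay just above the vehicle range. The membrane arm had 1455, 1429 and 1452 CPM against 1609.7, 1777 and 1739 CPM, with a wider gap. Without replicate 5, the ratios of the means were 1.07 for the matrix arm and 1.16 for the membrane arm.

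**Figure D4:**
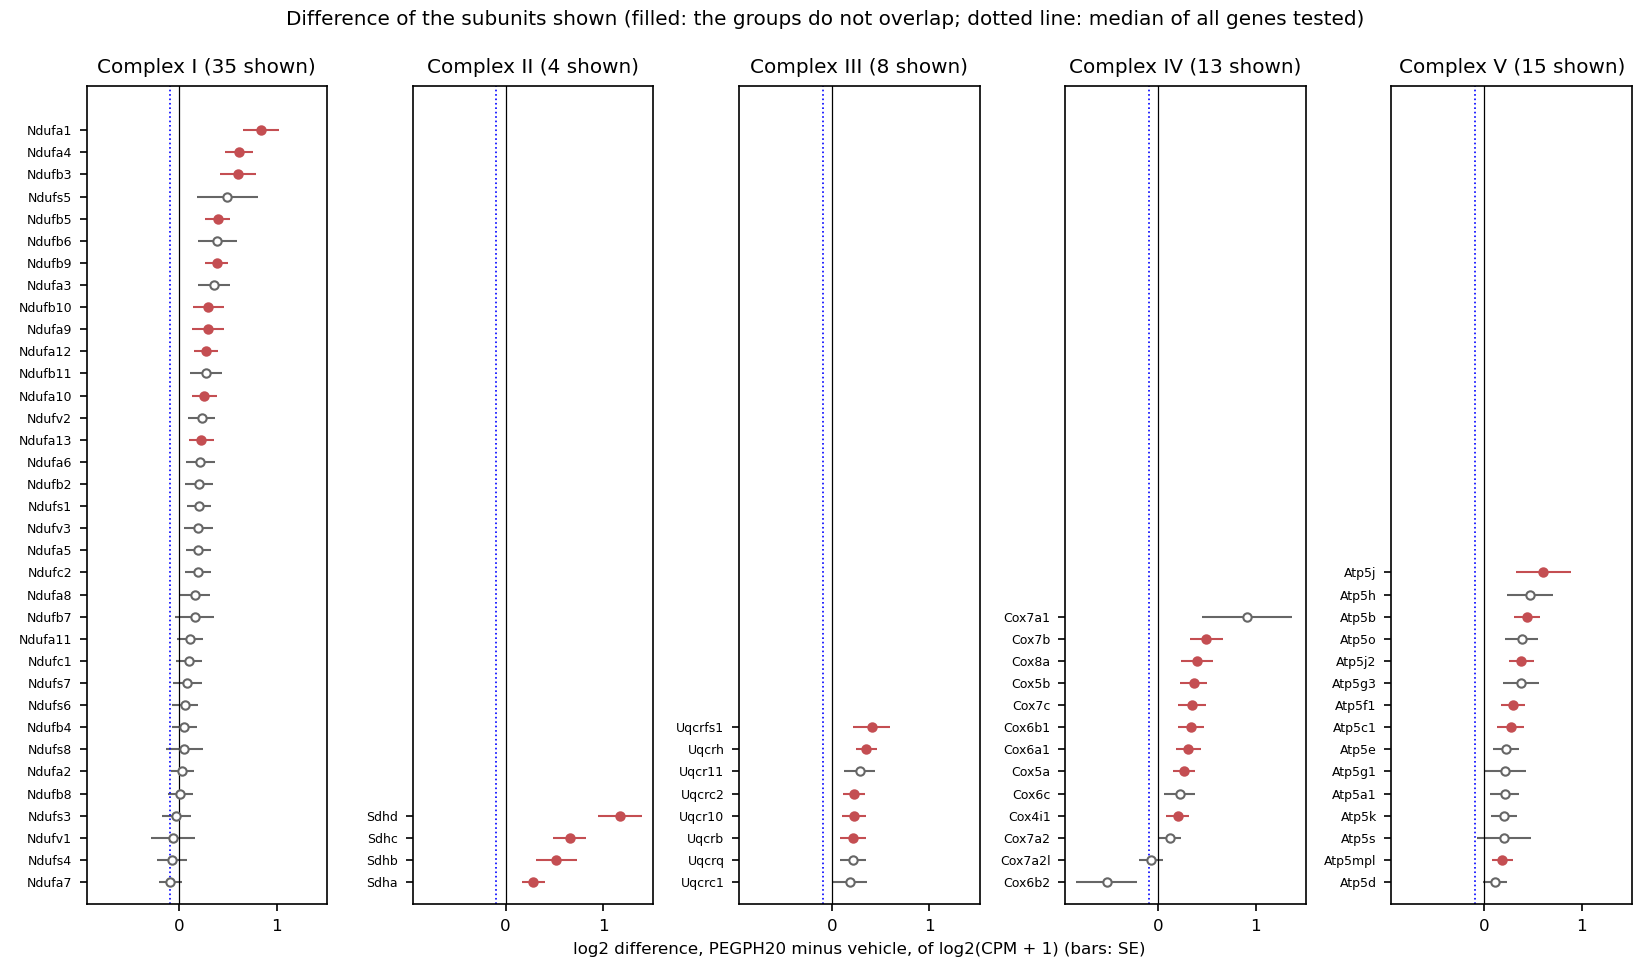
Log2 difference (x axis, PEGPH20 minus vehicle on log2(CPM + 1)) of 75 of the 76 tested subunits, each with its standard error, in panels by complex. All values of complexes II, III and V lie above 0, and the values below 0 are 4 in complex I and 2 in complex IV.

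In complex III, the cytochrome bc1 complex, all 8 genes were higher, and 5 were separated upwards, against 9.71% of all genes. The median log2 difference was 0.23, with little variation between genes (0.19 to 0.41). Uqcrh, the acidic hinge subunit that helps cytochrome c to dock, was at 261, 256 and 255 CPM in vehicle and 326, 348 and 315 CPM in PEGPH20 libraries. The vehicle values were almost identical and all PEGPH20 values were above them (0.35, SE 0.11, limma adjusted p = 0.183). Uqcrfs1, the Rieske iron-sulfur protein of the catalytic core, was at 92.0, 137 and 139.5 CPM against 144, 176 and 164 CPM (0.41, adjusted p = 0.301). The groups were separated by little, with vehicle replicate 1 below the other vehicle libraries. The core proteins differed in spread. Uqcrc2 was at 202, 214 and 207 CPM against 235, 247 and 249 CPM, with the groups apart (0.23, adjusted p = 0.313), while Uqcrc1 was at 194, 151 and 135 CPM against 155, 199.6 and 189 CPM, with the groups overlapping (0.19, adjusted p = 0.579). Of the small subunits, Uqcr10 (0.23) and Uqcrb (0.22) were separated, and Uqcr11 (0.29) and Uqcrq (0.22) overlapped.

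In complex IV, cytochrome c oxidase, 11 of 13 tested genes were higher, and 8 were separated upwards, against 9.71% of all genes. The median log2 difference was 0.31. Cox7b, an X-linked accessory subunit, was at 209.6, 279.9 and 272 CPM in vehicle and 307, 414 and 353 CPM in PEGPH20 libraries, separated between groups (0.50, SE 0.17, limma adjusted p = 0.202). Cox5b, a zinc-binding subunit on the matrix side, was at 94.9, 99.8 and 90.2 CPM against 108, 134 and 127 CPM, also separated (0.36, adjusted p = 0.224). Cox6b1, which lies on the cytochrome c side, was at 195, 154 and 181 CPM against 210.0, 230.5 and 229 CPM, also separated (0.34, adjusted p = 0.241). Among the abundant subunits, Cox5a was at 335, 333 and 336 CPM against 424, 370.5 and 416 CPM, where replicate 5 was the lowest of the treated libraries (0.27, adjusted p = 0.278). Cox6c was at 535, 458 and 445 CPM against 472, 659.7 and 558 CPM, with overlapping groups (0.22, adjusted p = 0.464). Cox7c was separated as well (0.35), and its level is uncertain for the reason given at the end.

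Several complex IV subunits exist as tissue isoforms, and the ubiquitous forms held most of the tags. Cox4i1, the ubiquitous form of subunit IV, was at 160.0, 148 and 152 CPM in vehicle and 182, 178 and 168 CPM in PEGPH20 libraries, separated between groups (0.20, limma adjusted p = 0.376). Its hypoxia-responsive counterpart Cox4i2 had 6 reads over the vehicle and 2 over the PEGPH20 libraries. Cox6a1 was at 264, 233 and 243 CPM against 288, 342 and 291 CPM, separated (0.31, adjusted p = 0.256). Cox8a was at 74.2, 73.8 and 98.2 CPM against 104, 120.0 and 99.7 CPM, barely separated (0.40, adjusted p = 0.251), and Cox8b, its muscle and brown fat form, had 1 read in the 6 libraries. Cox6b2, described as a testis form, was the lowest member with a log2 difference of -0.53, at 9.15, 13.8 and 8.41 CPM against 9.53, 7.08 and 4.55 CPM, with overlapping groups (adjusted p = 0.395).

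The forms of subunit VIIa, Cox7a1 and Cox7a2, had log2 differences above 0 that differed in size. Cox7a1, the form of heart and skeletal muscle, was at 38.5, 20.3 and 16.1 CPM in vehicle and 32.8, 88.8 and 30.5 CPM in PEGPH20 libraries. Replicate 5 alone exceeded the vehicle range, and the log2 difference of 0.91 (SE 0.46, limma adjusted p = 0.329) was 0.43 without it. The summed level of 16 enterocyte markers was 10157, 6452 and 4954 CPM in vehicle and 7676, 23711 and 8163 CPM in PEGPH20 libraries. Both rank the libraries alike, from replicate 5 down to vehicle replicate 3, apart from the places of replicates 4 and 6, a likeness seen in the data whose part in the Cox7a1 values was not tested. Markers of striated muscle were near 0, at 3.33 to 8.65 CPM summed over 7 genes in any library, and the 5 fat markers in the table summed to 31.4 to 63.1 CPM, of which the defining marker Adipoq made up no more than 1.06 CPM. Cox7a2, the ubiquitous form, was at 223, 203 and 215 CPM against 219, 245 and 232 CPM, with overlapping groups (0.12, adjusted p = 0.596). Cox7a2l, a related protein that joins complexes III and IV, was at 127, 114 and 114 CPM against 114, 106 and 117 CPM (-0.07, adjusted p = 0.761), a difference that turned positive at 0.02 under TMM scaling.

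In complex V, all 15 tested genes were higher, and 6 were separated upwards, against 9.71% of all genes. The median log2 difference was 0.27. Atp5b, the catalytic beta subunit, was at 237, 243 and 271 CPM in vehicle and 364, 355 and 302 CPM in PEGPH20 libraries. All treated values were above the vehicle values, with replicate 5 between the others (0.44, SE 0.13, limma adjusted p = 0.173). Atp5a1, the alpha subunit of the same ring, was at 542, 586 and 678 CPM against 766, 721 and 602 CPM, with overlapping groups (0.21, adjusted p = 0.467). The groups of Atp5j2, subunit f in the membrane, were separated at 227, 198 and 199 CPM against 262, 299.6 and 253 CPM (0.38, adjusted p = 0.202). Atp5f1, the peripheral stalk subunit b, had 213, 227 and 230.5 CPM against 246, 305 and 276 CPM, also separated (0.30, adjusted p = 0.276). The other separated genes were Atp5j (0.61), Atp5c1 (0.27) and Atp5mpl (0.19). Values of the remaining tested genes Atp5h (0.47), Atp5o (0.38), Atp5e (0.22), Atp5k (0.20), Atp5s (0.20) and Atp5d (0.11) overlapped between groups.

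The proton-carrying c ring is built from an identical mature protein encoded by 3 genes. Atp5g3 gave nearly all of their tags together with Atp5g1 and was the most abundant subunit transcript, at 495, 606 and 721 CPM in vehicle and 698, 939 and 727 CPM in PEGPH20 libraries, with a small overlap (0.38, limma adjusted p = 0.317). Atp5g1 was at 99.7, 64.2 and 62.7 CPM against 71.0, 93.8 and 95.1 CPM, fully overlapping (0.22, adjusted p = 0.609). Atp5g2 had 13 reads over the vehicle and 8 over the PEGPH20 libraries, and Atp5l, a small membrane subunit that was not tested either, had 14 and 11. By place in the enzyme, a grouping also made after the values were seen, medians were 0.22 for the 5 genes of the head and central stalk, 0.43 for the 4 of the peripheral stalk and 0.22 for the 5 tested genes of the c ring and small membrane subunits. The stalk owed part of that to replicate 5, since its summed ratio of 1.30 was 1.19 without it.

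**Figure D5:**
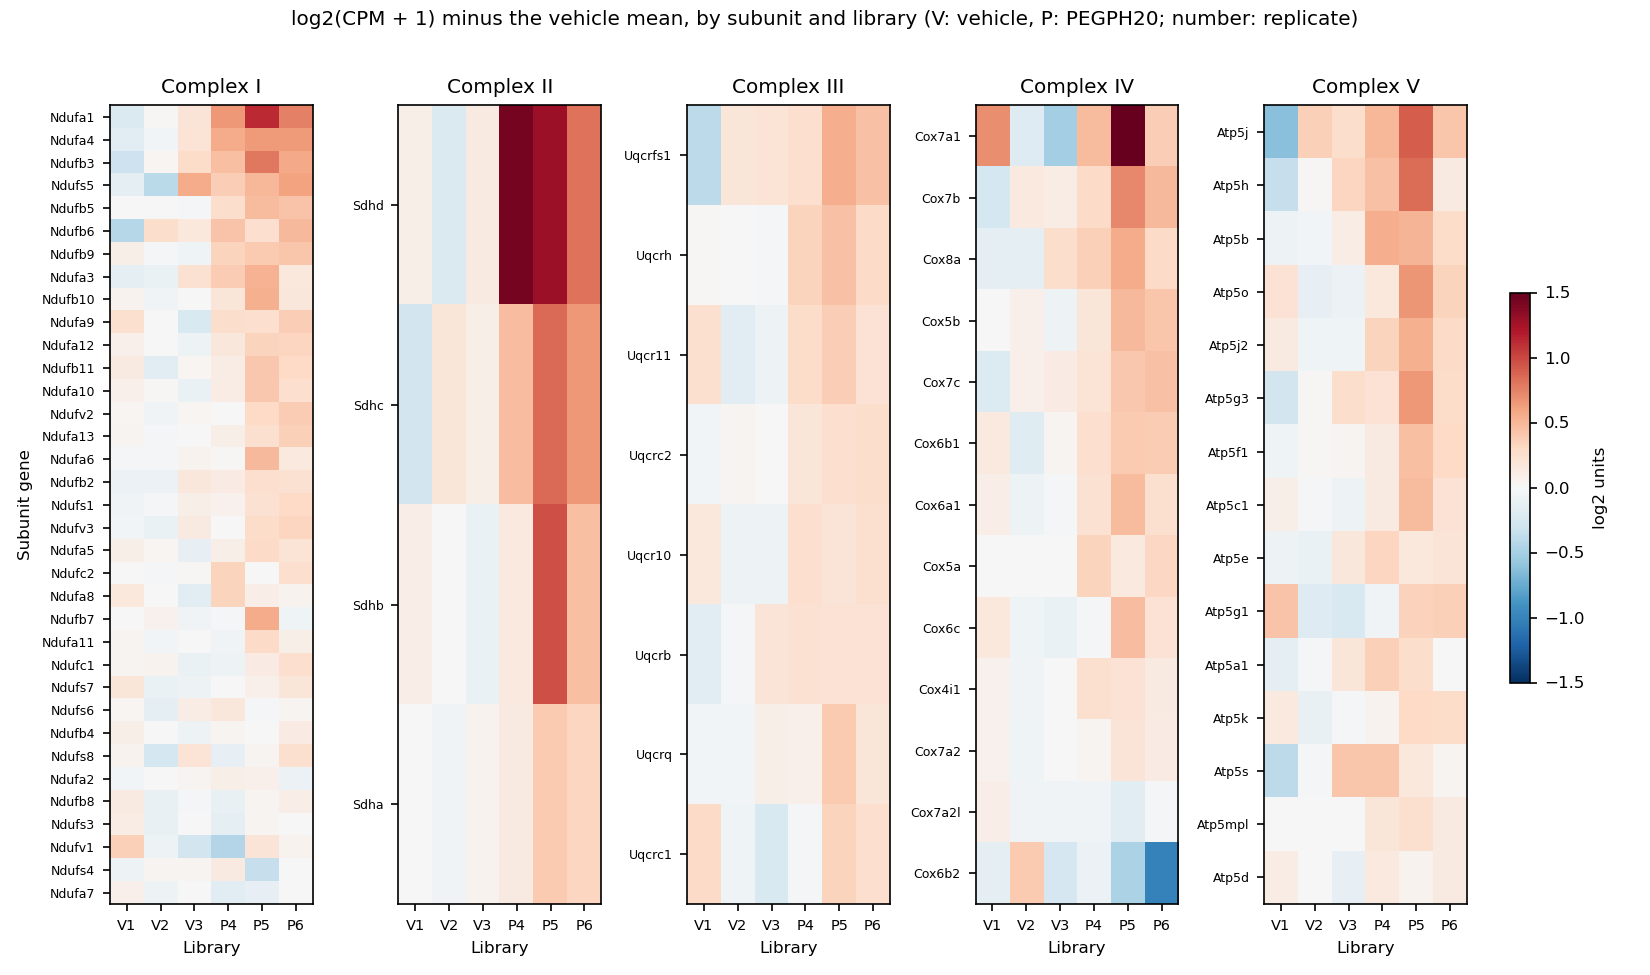
Level of 75 of the 76 tested subunits (rows, by complex and ordered by log2 difference) in each library (columns, V vehicle and P PEGPH20 with replicate number), as log2(CPM + 1) minus the vehicle mean, on a colour scale limited to -1.5 to 1.5. Most rows are above the vehicle mean in all PEGPH20 columns, and replicate 5 is the highest library of 40 of the 76 subunits.

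The shift was present in each treated library and largest in replicate 5. The mean log2(CPM + 1) of the tested subunits relative to the vehicle mean was 0.20, 0.37 and 0.25 in PEGPH20 replicates 4, 5 and 6, and -0.00, -0.03 and 0.03 in vehicle replicates 1, 2 and 3. Replicate 4 was above all vehicle libraries in 47 subunits (61.8%, against 31.1% of all genes). The same was true of 57 subunits (75%) in replicate 5 and of 57 in replicate 6, against 24.5% and 24.8% of all genes. Of the 76 subunits, 40 were highest in replicate 5, 15 in replicate 4, 14 in replicate 6 and 7 in a vehicle library (6 in replicate 1 and 1 in replicate 2).

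Messenger RNAs from mitochondrial DNA were higher too, while all reads from mitochondrial DNA overlapped between groups. Those reads, ribosomal RNA for the most part, made up 17.4%, 16.9% and 16.3% in vehicle and 16.7%, 21.7% and 19.2% in PEGPH20 libraries. Ribosomal RNA alone was 14.0%, 13.6% and 12.6% against 12.7%, 16.4% and 15.2%, which overlap as well. The genes mt-Nd4l, mt-Co2, mt-Co3, mt-Atp6 and mt-Atp8 were not analysed here. The sums below therefore hold no complex V gene and only mt-Co1 of complex IV. The 8 protein-coding mitochondrial genes analysed here summed to 33405, 33363 and 36358 CPM in vehicle and 39579, 51526 and 39858 CPM in PEGPH20 libraries, a ratio of 1.27, or 1.16 without replicate 5. All 7 tested were higher, with a median log2 difference of 0.22, and 0 passed. Without replicate 5, 6 of 7 were higher and the median was 0.11. Their sum divided by the nuclear sum was 3.33, 3.37 and 3.53 in vehicle and 3.46, 3.93 and 3.34 in PEGPH20 libraries, which overlap. Among them mt-Cytb, the complex III core subunit, was at 4035, 4744 and 5308 CPM against 6347, 8268 and 6363 CPM (0.57, limma adjusted p = 0.199).

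Markers of other cell types differed between the same libraries. Enterocyte genes were higher in 15 of 16 (median log2 difference 0.79, and 0.20 without replicate 5), with summed levels of 4954 to 10157 CPM in vehicle and 7676 to 23711 CPM in PEGPH20 libraries. All 9 tested fibroblast genes were lower (median -1.17), with 3118 to 3207 CPM summed in vehicle and 658 to 1711 CPM in PEGPH20 libraries. All 6 tested endothelial genes were lower as well (-0.94), with 271 to 287 CPM in vehicle and 100.4 to 165 CPM in PEGPH20 libraries. All 3 tested B and plasma cell genes were higher (0.71, and 0.70 without replicate 5) and separated between groups. Over all genes, 9.71% were separated upwards. Summed levels of the B and plasma cell list were 1740 to 2101 CPM in vehicle and 2759 to 3515 CPM in PEGPH20 libraries. None of these markers passed with all libraries. Without replicate 5, 7 of the 9 fibroblast genes (median -0.81) and 3 of the 6 endothelial genes (-0.67) fell in limma. That fit called 2.03% of all genes lower and 0.948% higher. In it 1 B or plasma cell gene and 1 enterocyte gene rose. The same fit called 1 of 76 subunits, near the share of all genes called higher. The part of these markers in the subunit difference was not tested. All 3 tested T and NK cell genes were higher (0.85, and 0.10 without replicate 5), while 6 of 8 macrophage and neutrophil genes (-0.25) and 6 of 7 smooth muscle genes (-0.40) were below 0. Pan-epithelial genes had 3 of 9 higher (median -0.18), with summed levels of 8317 to 9422 CPM in vehicle and 6010 to 8375 CPM in PEGPH20 libraries.

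Some other mitochondrial gene lists had counts near those of the subunits, and some did not. Of 16 tested citric acid cycle and pyruvate dehydrogenase genes, 14 were higher with a median of 0.36, among them citrate synthase Cs, at 179.8 ± 3.88 CPM under vehicle against 295 ± 66.3 CPM (SD, n = 3 each, limma adjusted p = 0.155). Carriers and subunits whose symbols lie outside the families had 8 of 8 higher and a median of 0.49. They included the ATP synthase subunit gene Usmg5 at 36.3 ± 8.39 and 72.3 ± 6.31 CPM (adjusted p = 0.134, and 0.0310 without replicate 5, where it rose). Cytochrome c, Cycs, was at 55.6 ± 7.11 and 82.3 ± 2.80 CPM (adjusted p = 0.157). Of complex IV assembly genes 15 of 18 were higher (median 0.22), of coenzyme Q synthesis genes 8 of 10 (0.21) and of complex V assembly genes 3 of 4 (0.21, and 0.01 without replicate 5). Lower shares were seen in other lists. Of 73 mitochondrial ribosome genes, 36 were higher with a median of -0.00, which without replicate 5 became 51 with a median of 0.07. Of 18 mitochondrial membrane and import genes, 9 were higher with a median of 0.02, and 13 with a median of 0.12 without replicate 5. Higher values were held by 7 of 13 fatty acid oxidation genes with a median of 0.09, 10 of 14 complex I assembly genes with a median of 0.09, 3 of 5 complex III assembly genes with a median of 0.09 and 1 of 4 complex II assembly genes with a median of -0.26 (2 of 4 and -0.01 without replicate 5). Whether these lists differ from the subunits was not tested.

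Counting could blur single members. Of the 81 genes, 21 share at least 1 window of 75 bases in their last 300 transcript bases with another gene, 18 of them with a pseudogene, so that reads may have been split or lost. Sharing exceeded 50% of windows in Cox7c (62.7%), Atp5l (59.7%) and Atp5g2 (51.4%), and their levels are uncertain. The median log2 difference was 0.23 in tested genes with no shared window and 0.28 in those with any. Within the last 300 bases of the gene, exons of 8 members overlap an antisense gene, among the named ones Cox5a, Cox6c, Uqcrc2 and Ndufa4l2. The kit keeps strand, and the strand setting of the count is not given in the sources used here.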

How the data were processed

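Gene expression was measured by QuantSeq 3' mRNA sequencing (forward kit, 200 ng RNA, 75 nt single-end reads, optional molecular identifiers, per the labels' protocols) in 6 tumors. The authors deposited a signal in CPM, gene counts scaled to a library total of 1000000, and the submitters' processing notes name GRCm38. Not given in the sources used here are the aligner, counter, annotation and any use of the identifiers. A row holding that total names no gene and was left out. For this reason the unit was recorded as a signal and not as CPM. Whole reads were recovered by dividing by the value of 1 read (100.0% whole within 1e-06 of a read), which gave 2075588 to 2832876 reads per library. A count of 0 allows up to 3 reads, 1.06 to 1.45 CPM, for counting error only. Symbols came from GENCODE M21, which matched 21786 identifiers and not 92.

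Groups are the treatment labels, with 3 libraries each. No pair of libraries agreed within sampling noise (chi-square per degree of freedom of 2.42 to 35.8). The main test was limma 3.58.1 with a mean-variance trend on log2(CPM + 1), unpaired, on 11389 genes kept by filterByExpr on the recovered reads (minimum count 10), adjusted by Benjamini-Hochberg over all of them. Differences on this scale understate the change of low genes. On the recovered reads, edgeR 4.0.16 called 10 genes and DESeq2 1.42.0 called 277. Scripts were checked on simulated counts. Alternatives were pseudocounts of 0.1 and 5, other filters and scalings, these tools, array weights and leaving out each library. The fits with edgeR or TMM scaling and without PEGPH20 replicate 5 were chosen after seeing the data.

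The members, gene lists and tests were chosen with earlier results of these data known. Named by rule were members past the threshold with all libraries or without replicate 5. Per complex, the 3 with the smallest p and the 2 with the highest level were named too. Tissue isoforms and paralogs, and the catalytic subunits, completed the rule. Other members, such as those given only as separated or overlapping, lie outside the rule and were named after their values were seen. Of each pathway list up to 3 genes with the smallest p could be named. The values of 1 member are not reported here, though it is counted in all summaries. Members are not replicates, so medians and counts over them carry no test. With 3 against 3 libraries an exact permutation test cannot go below p = 0.10. R 4.3.3 ran the fits, and Python 3.11.15 with matplotlib 3.10.9, pandas 2.3.3 and numpy 2.4.6 the rest.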

Additional observations from a re-analysis of the deposited data

How the results depend on the processing

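The direction of the medians was positive in every complex under every alternative run. The number of subunits past the threshold was 0 with all libraries in limma under every pseudocount, filter and scaling. It was 2 with DESeq2 (2.43% of all genes) and 6 with array weights (7.65%). When a library was left out in limma it was 0 to 1, with 1 without PEGPH20 replicate 5 (2.98% of all genes). It was 3 without that replicate both with edgeR (3.7% of all genes) and with TMM scaling (3.36%). Among 76 subunits these counts are near or below those shares, which count either direction. The subunits called in these fits were higher, and the shares of all genes called higher, given above, are smaller. RLE scaling shifted the median of all genes by 0.11, and subunit medians moved with it. Relative to the median of all genes, that of the subunits stayed between 0.23 and 0.46 over all alternatives. Under TMM scaling 75 of 76 subunits were above 0, against 49.6% of all genes, and over alternatives 67 to 75 were.

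Median log2 differences of all subunits were 0.32 (TMM), 0.34 (RLE), 0.32 (upper quartile), 0.34 (edgeR) and 0.36 (DESeq2), and 0.21 to 0.31 when a library was left out. In the same order they were 0.29, 0.31, 0.29, 0.30 and 0.32 for complex I (0.18 to 0.28) and 0.32, 0.34, 0.32, 0.33 and 0.34 for complex III (0.21 to 0.29). Complex II moved to 0.74 with DESeq2, to 0.43 to 0.73 when a library was left out (lowest without PEGPH20 replicate 5, highest without 4) and to 0.44 with edgeR without replicate 5. Complex IV gave 0.42 (RLE), 0.42 (edgeR) and 0.43 (DESeq2), and complex V 0.37 (TMM), 0.38 (RLE), 0.38 (edgeR) and 0.40 (DESeq2).

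Of 627 values of named subunits, 598 kept their direction and side of the threshold, 13 came to pass it and 16 changed sign. Cox7a2l turned to 0.020 (TMM), 0.036 (RLE), 0.018 (upper quartile), 0.014 (edgeR), 0.028 (DESeq2) and 0.00037 (TMM without replicate 5). Ndufv1 turned to 0.030 (TMM), 0.045 (RLE), 0.028 (upper quartile), 0.039 (edgeR) and 0.057 (DESeq2). When a library was left out, Ndufv1 ran from -0.20 to 0.12 and Ndufb8 from -0.048 to 0.076. The median of all genes lay above that of the main fit by 0.09 with TMM, upper quartile and edgeR. With RLE and DESeq2 it lay 0.11 above. The cause of the sign changes was not tested. No paired analysis was possible because the groups share no replicate number. With 3 libraries a group, small differences such as these are limited by the spread between libraries, and members under about 5 CPM by depth.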

Other observations

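Genes of assembly and of the adenine nucleotide exchange did not all follow the subunits. Sdhaf1, an assembly factor that helps to load iron-sulfur clusters into Sdhb, was at 20.7, 18.4 and 22.2 CPM in vehicle and 6.35, 4.58 and 10.9 CPM in PEGPH20 libraries, lower without overlap, while all 4 complex II subunits were higher. Its log2 difference was -1.44 (limma adjusted p = 0.135), and without replicate 5 it fell by 1.19 on the log2 scale (adjusted p = 0.0361). The ADP/ATP carriers, which exchange the product of complex V across the inner membrane, had values in opposite directions. Slc25a4, the form of heart and muscle, was at 99.7, 109.3 and 91.4 CPM against 56.1, 30.8 and 52.8 CPM, lower without overlap. It did not pass with all libraries (log2 difference -1.13, limma adjusted p = 0.135) and fell without replicate 5 (-0.86, adjusted p = 0.00871). Slc25a5, the form common in dividing cells, was at 104, 137 and 134 CPM against 204, 279 and 178 CPM, higher without overlap (0.80, adjusted p = 0.155, and 0.62 with adjusted p = 0.0501 without replicate 5).

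Of 8 genes linked to hypoxia and glycolytic switching, 7 were lower and 1 higher (median log2 difference -0.69), where 40.2% of all genes were higher. The list was chosen with earlier results of these data known, so its count is a description and not a test. Ndrg1 fell (229.5 ± 6.19 to 98.7 ± 10.8 CPM, SD, n = 3 each, limma adjusted p = 0.0361), where 0.079% of all genes passed. Bnip3 was at 64.7 ± 5.61 and 24.5 ± 5.61 CPM (limma adjusted p = 0.0841, and 0.00391 without replicate 5, where it fell). Pdk1, which inhibits pyruvate dehydrogenase, was at 61.3 ± 8.64 and 38.9 ± 5.36 CPM (adjusted p = 0.161). Atpif1, the inhibitor of ATP synthase, was at 262, 265 and 265 CPM in vehicle and 346, 451 and 383 CPM in PEGPH20 libraries, higher without overlap. It did not pass with all libraries (log2 difference 0.56, limma adjusted p = 0.147) and rose without replicate 5 (0.46, adjusted p = 0.0388).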
